A study of Zea mays with 6 samples.

Results

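Expression of 10 gene models of the carotenoid pathway, which also makes the precursors of the hormone abscisic acid, was examined in maize leaves. The 10 identifiers were taken from a list that pairs each with a gene name. In pathway order they are Zm00001d036345 (y1, PSY1), Zm00001d012394 (psy2), Zm00001d027936 (vp5, PDS), Zm00001d011210 (lcyE), Zm00001d026056 (crtRB1), Zm00001d029822 (lut1), Zm00001d003512 and Zm00001d003513 (both zep1), Zm00001d048373 (ccd1) and Zm00001d033222 (vp14). All 10 were present among the 44351 identifiers in every library, and all 10 passed the filter of a mean of at least 0.5 FPKM (fragments relative to the length of the gene and to all mapped fragments of its library). The tables hold identifiers only. The RefSeq table used here (assembly Zm-B73-REFERENCE-NAM-5.0) contained 0 of all 44146 Zm00001d identifiers, these 10 among them, so the names rest on that list.

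The libraries came from leaves of KN5585, a maize inbred line used as a recipient in transformation. The transgenic group (3 libraries, titled T) carried a transgene, which the series title names as ZmSUS1, a sucrose synthase gene; the non-transgenic control group (3 libraries, titled CK) was its negative control. No source used here gives the promoter or the number of transformation events, and the series text speaks of 1 transgenic strain. Every sample carries a time point of 3 days after drought, whereas the series text gives 5 days. The treatment label is transgenic for the T samples and normal for the CK samples, so if the CK plants were watered, the transgene and drought cannot be told apart. The series calls the replicates biological without tying them to separate plants, so a p-value reflects the spread among these 6 libraries, which may be technical. The level of the transgene's own product and markers of leaf cell types were not analysed here.

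Carotenoids are made in plastids, where phytoene synthase condenses geranylgeranyl diphosphate into phytoene and desaturases and isomerases turn phytoene into red lycopene. Lycopene cyclases then open a branch towards lutein, for which the epsilon cyclase is needed, and a branch towards beta-carotene, zeaxanthin and violaxanthin. In leaves these pigments sit in the photosystems and protect them from excess light. Abscisic acid, which closes stomata under water deficit, is made from the epoxidised end of the second branch after cleavage by an epoxycarotenoid dioxygenase.

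As deposited, 2 of the 10 genes were higher in transgenic than in control leaves, y1 and lut1, and 7 were lower, with vp14 the lowest relative to control, at 0.0969 times the control mean. The remaining gene, lcyE, did not pass the test. Of all 22944 genes tested, 16.3% were called higher and 67.7% lower (limma on log2(FPKM + 1), Benjamini-Hochberg adjusted p below 0.05), so a lower value was also the common result among genes at large. All fitted log2 differences are transgenic minus control on the log2(FPKM + 1) scale. Their median was -0.41 over the 10 genes and -0.56 over all genes tested. Total FPKM was 829541 to 831082 in transgenic libraries and 684047 to 689548 in the control libraries. Because most genes shifted one way, directions were also read after median-of-ratios scaling, which divides each library by a size factor and brought the median over all genes to -0.015, after scaling to the same total FPKM and after quantile normalisation. Under all 4 scalings, y1 and lut1 were called higher, and crtRB1, vp14 and Zm00001d003513 (zep1) were called lower. These 5 genes compare with 12.1% of all tested genes called higher and 35.2% called lower under all 4 scalings. The genes psy2, vp5, ccd1 and Zm00001d003512 (zep1) were called lower under 3 scalings and higher after median-of-ratios scaling. That scaling alone called 7 of the 10 genes higher and 3 lower, against 36.3% and 36.9% of all tested genes.

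**Figure D1:**
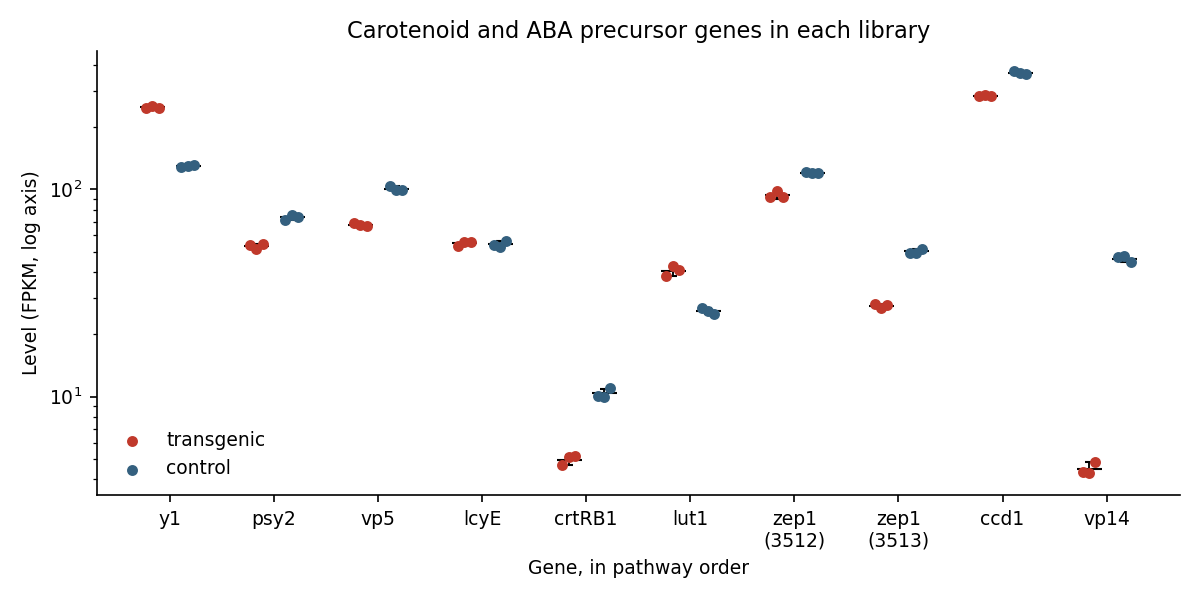
Level of each gene (FPKM, log axis) in each library, in pathway order, with transgenic libraries in red left of control libraries in blue. Points are libraries, and bars are the mean and SD of 3 libraries; the 2 zep1 models are marked by the end of their identifiers. The groups did not overlap for 9 of the 10 genes, against 84.5% of all tested genes, and overlapped for lcyE.

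Phytoene synthase carries out the first committed step of the pathway, and its 2 genes here differed in opposite directions as deposited, whereas both were called higher after median-of-ratios scaling. The gene y1, whose loss gives white kernels in maize, stood at 248.0, 251.9 and 248.4 FPKM in the transgenic libraries and at 128.5, 129.8 and 131.5 FPKM in the control libraries. Every transgenic library lay above every control library. The mean was 249.4 ± 2.1 FPKM in transgenic and 129.9 ± 1.5 FPKM in control leaves (SD, n = 3 each), a 1.92-fold difference. On the log2 scale the difference was 0.94 ± 0.02 (SE; adjusted p = 1.8e-09); with median-of-ratios scaling it was 1.62 ± 0.02 (adjusted p = 4.1e-11). In bulk leaf RNA, a change in the number of cells of a type and a change in RNA per cell cannot be told apart.

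The second phytoene synthase gene, psy2, stood at 53.7, 51.8 and 54.5 FPKM in the transgenic libraries and at 71.5, 74.9 and 73.4 FPKM in the control libraries. The transgenic values were the lower ones, with no overlap. Its log2 difference of -0.45 ± 0.03 (SE; adjusted p = 2.0e-06) was close to the median of all genes, and it turned to 0.22 ± 0.03 after median-of-ratios scaling (adjusted p = 0.00038). Summed over y1 and psy2, phytoene synthase transcripts came to 302.7 ± 1.0 FPKM in transgenic and 203.2 ± 2.8 FPKM in control leaves (SD, n = 3 each). The summed level was 1.49-fold higher as deposited, 1.23-fold higher with the same total FPKM and 2.39-fold higher after median-of-ratios scaling. All 3 transgenic libraries lay above the controls in each case (two-sided exact permutation p = 0.1, which is the lowest that 3 against 3 libraries allow). The 2 synthases have related sequences, and reads that they share cannot be told apart in these values.

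The gene vp5 encodes phytoene desaturase, the step after phytoene, and its mutants are pale, viviparous seedlings in maize. Its level was 68.6, 67.1 and 67.0 FPKM in the transgenic libraries, against 103.8, 99.8 and 99.6 FPKM in the control libraries. The transgenic libraries were all lower and lay close together. The resulting log2 difference, -0.57 ± 0.03 (SE; adjusted p = 1.8e-07), nearly equalled the median of all tested genes. After median-of-ratios scaling it was 0.10 ± 0.03 (adjusted p = 0.012), so the direction for vp5 depends on the scaling.

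The gene lcyE encodes lycopene epsilon cyclase, which commits lycopene to the lutein branch, and natural variants of it alter the balance of carotenoids in maize kernels. It was at 53.6, 55.7 and 55.6 FPKM in the transgenic libraries and at 54.0, 52.7 and 56.6 FPKM in the control libraries. The values of the groups overlapped. Between groups the log2 difference was 0.01, with a 95% interval of -0.07 to 0.10 (limma, adjusted p = 0.74). The other scalings gave calls in both directions: 0.68 after median-of-ratios scaling, 0.40 after quantile normalisation and -0.26 with the same total FPKM (adjusted p of 2.7e-07, 8.7e-06 and 0.00011).

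**Figure D2:**
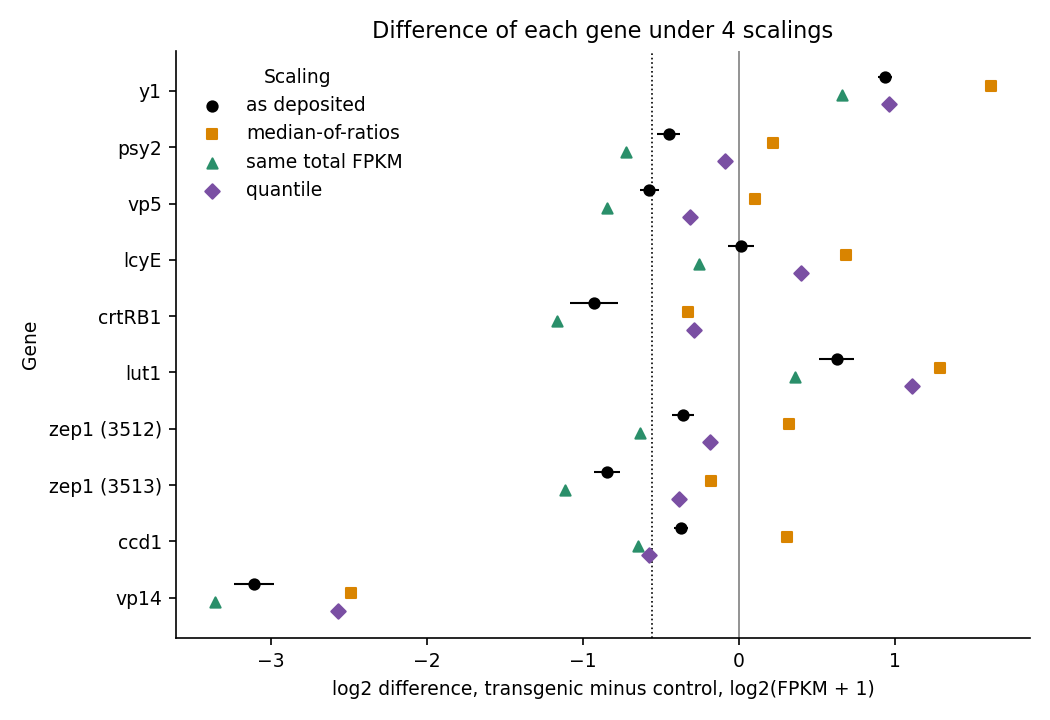
Difference of each gene between transgenic and control leaves on the log2(FPKM + 1) scale (x axis) under 4 scalings between libraries. Black points are the values as deposited with 95% intervals from limma, coloured symbols the other scalings, and the dotted line the median of all 22944 tested genes as deposited, -0.56; symbols of y1 and lut1 all lie right of 0, and those of crtRB1, vp14 and the zep1 model ending in 3 all lie left of it.

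The hydroxylases of the 2 branches differed in opposite directions under all 4 scalings, with lut1 higher and crtRB1 lower in transgenic leaves. The gene crtRB1 encodes a beta-carotene hydroxylase, which turns beta-carotene into zeaxanthin by way of beta-cryptoxanthin. Its level was 4.66, 5.09 and 5.16 FPKM in the transgenic libraries and 10.1, 9.97 and 11.0 FPKM in the control libraries. All transgenic values lay well under the lowest control value. The mean was 0.480 times that of control leaves, and the fitted log2(FPKM + 1) difference was -0.93 ± 0.07 (SE; adjusted p = 2.1e-06). The difference kept its sign but was smaller after median-of-ratios scaling, at -0.33 ± 0.07 (adjusted p = 0.0019), and after quantile normalisation, at -0.29.

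The gene lut1 encodes a cytochrome P450 that hydroxylates the epsilon ring on the way to lutein. It reached 38.2, 42.9 and 40.7 FPKM in the transgenic libraries, against 26.8, 25.9 and 25.1 FPKM in the control libraries. The groups were clearly separate, and the spread was wider in the transgenic libraries (SD 2.32 FPKM) than in the control libraries (SD 0.850 FPKM). This amounted to a log2 difference of 0.63 ± 0.05 (SE; adjusted p = 3.5e-06), a 1.57-fold difference in mean FPKM. It was 1.29 ± 0.05 after median-of-ratios scaling (adjusted p = 4.1e-08) and 0.36 with the same total FPKM (adjusted p = 0.00013).

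Zeaxanthin epoxidase converts zeaxanthin to violaxanthin, in leaves as part of the xanthophyll cycle, and 2 identifiers are listed as zep1. Zm00001d003512 stood at 92.0, 97.9 and 91.5 FPKM in the transgenic libraries and at 121.7, 119.5 and 120.5 FPKM in the control libraries. Zm00001d003513 stood at 28.0, 26.8 and 27.7 FPKM in the transgenic libraries and at 49.5, 49.5 and 51.6 FPKM in the control libraries. Both were lower in transgenic leaves as deposited with no overlap, and the less abundant model differed more. For Zm00001d003512 the log2 difference was -0.36 ± 0.03 (SE; adjusted p = 7.1e-06) and turned to 0.32 ± 0.03 after median-of-ratios scaling (adjusted p = 1.6e-05). For Zm00001d003513 it was -0.85 ± 0.04 (SE; adjusted p = 7.4e-08) and stayed below 0 at -0.18 ± 0.04 after that scaling (adjusted p = 0.0017). Whether the models are separate genes or parts of 1 transcription unit was not analysed here. Their sum was 121.3 ± 3.0 FPKM in transgenic and 170.8 ± 1.6 FPKM in control leaves as deposited (SD, n = 3 each), and its direction turned after median-of-ratios scaling, with 152.6 ± 3.1 in transgenic and 133.8 ± 0.8 in control leaves.

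The gene ccd1 encodes a carotenoid cleavage dioxygenase that produces volatile apocarotenoids and, in maize, is present in varying copy number behind the white cap trait. It was the most abundant of the 10 in every library, at 281.8, 286.0 and 281.4 FPKM in the transgenic libraries and 373.4, 363.4 and 362.3 FPKM in the control libraries. The transgenic values were lower as deposited, without overlap. Its log2 difference was -0.37 ± 0.02 (SE; adjusted p = 3.1e-07) as deposited, -0.65 with the same total FPKM and -0.58 after quantile normalisation, and turned to 0.31 ± 0.02 after median-of-ratios scaling (adjusted p = 1.4e-06).

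The largest difference among the 10 was in vp14. This gene encodes an epoxycarotenoid dioxygenase. Such enzymes cleave epoxycarotenoids to xanthoxin, the step regarded as rate-limiting for abscisic acid in water-stressed leaves. Other genes for this step were not analysed here, so the values cover vp14 alone. Its mutants are viviparous, with kernels that germinate on the ear. The level of vp14 was 4.35, 4.28 and 4.86 FPKM in the transgenic libraries, against 47.1, 47.7 and 44.5 FPKM in the control libraries. The highest transgenic library was far below the lowest control library. The mean was 4.50 ± 0.32 FPKM in transgenic and 46.4 ± 1.7 FPKM in control leaves (SD, n = 3 each), so the control level was 10.3 times the transgenic level. The fitted log2(FPKM + 1) difference, which understates changes of low genes, was -3.11 ± 0.06 (SE; adjusted p = 6.5e-10) and, with median-of-ratios scaling, -2.49 ± 0.06 (adjusted p = 2.4e-09). Of all tested genes, 0.715% had a lower log2 fold change than vp14 and 94.0% had a lower one than y1. The share was 27.6% for crtRB1, 32.0% for Zm00001d003513 (zep1) and 90.6% for lut1.

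**Figure D3:**
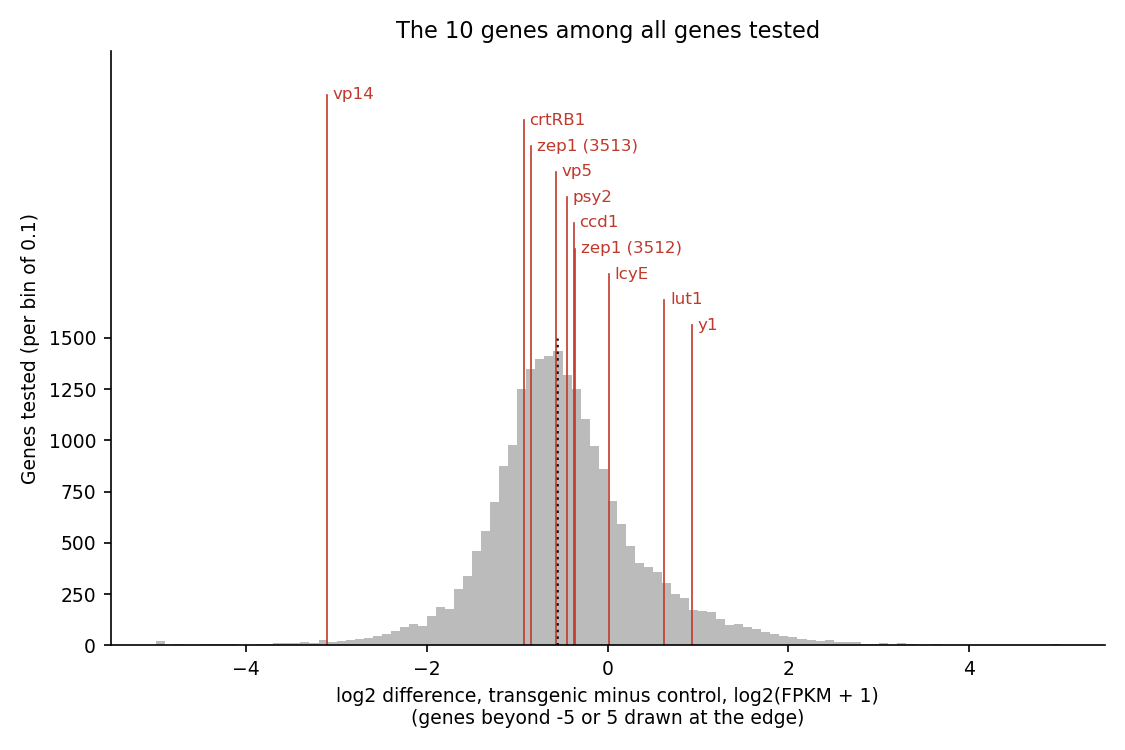
Number of tested genes (y axis) by log2 difference between transgenic and control leaves, as deposited (x axis, bins of 0.1), with the 10 genes as red lines and the median of all 22944 genes, -0.56, as a dotted line. The line of vp14 stands in the far left tail at -3.11, y1 at 0.94 and lut1 at 0.63 on the right, and the other genes between -0.93 and 0.01.

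Ratios between genes of the same library are unaffected by dividing a library by a single factor, as median-of-ratios and same-total scaling do. The 7 ratios compared were chosen with earlier results of these data known. Quantile normalisation does alter them; under it, a check added after the data were seen, all 7 group differences had the same direction. In all 7 the groups did not overlap (two-sided exact permutation p = 0.1 for each, and 0.1 after Benjamini-Hochberg adjustment over the 7, the lowest that the design allows). Taken singly, 84.5% of all tested genes did not overlap either, and the share among other pairs of genes was not computed. Some of the 7 ratios also share a gene. The ratio of y1 to psy2 was 4.62, 4.86 and 4.56 in the transgenic libraries and 1.80, 1.73 and 1.79 in the control libraries. Thus y1 was the more abundant synthase in both groups, and more so in transgenic leaves. The desaturase vp5 over the summed synthases gave 0.223 ± 0.004 in transgenic and 0.498 ± 0.019 in control leaves (SD, n = 3 each).

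At the branch, lcyE over crtRB1 was 11.1 ± 0.4 in transgenic and 5.26 ± 0.10 in control leaves (SD, n = 3 each). The ratio of lut1 to lcyE, which follow each other in the lutein branch, was 0.739 ± 0.029 in transgenic and 0.476 ± 0.029 in control leaves (SD, n = 3 each). Both ratios were higher in every transgenic library than in any control library. As deposited, the log2 difference was 0.01 for lcyE, -0.93 for crtRB1 and 0.63 for lut1. On that scale the ratios thus largely restate the differences of crtRB1 and lut1. The ratio of Zm00001d003512 to Zm00001d003513 was 3.28, 3.66 and 3.31 in the transgenic libraries and 2.46, 2.41 and 2.33 in the control libraries. The transgenic libraries all lay above the controls, so the 2 models listed as zep1 differed unequally between the groups.

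The ratios to vp14 differed most. Both zep1 models together exceeded vp14 by 27.6, 29.1 and 24.5 times in the transgenic libraries and by 3.64, 3.54 and 3.87 times in the control libraries. The ratio of ccd1 to vp14 was 64.8, 66.8 and 57.9 in the transgenic libraries and 7.93, 7.62 and 8.14 in the control libraries. The group difference was 7.34-fold for zep1 over vp14 and 7.99-fold for ccd1 over vp14. Both ratios are taken over vp14, whose control mean was 10.3 times its transgenic mean, so they largely restate that difference.

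**Figure D4:**
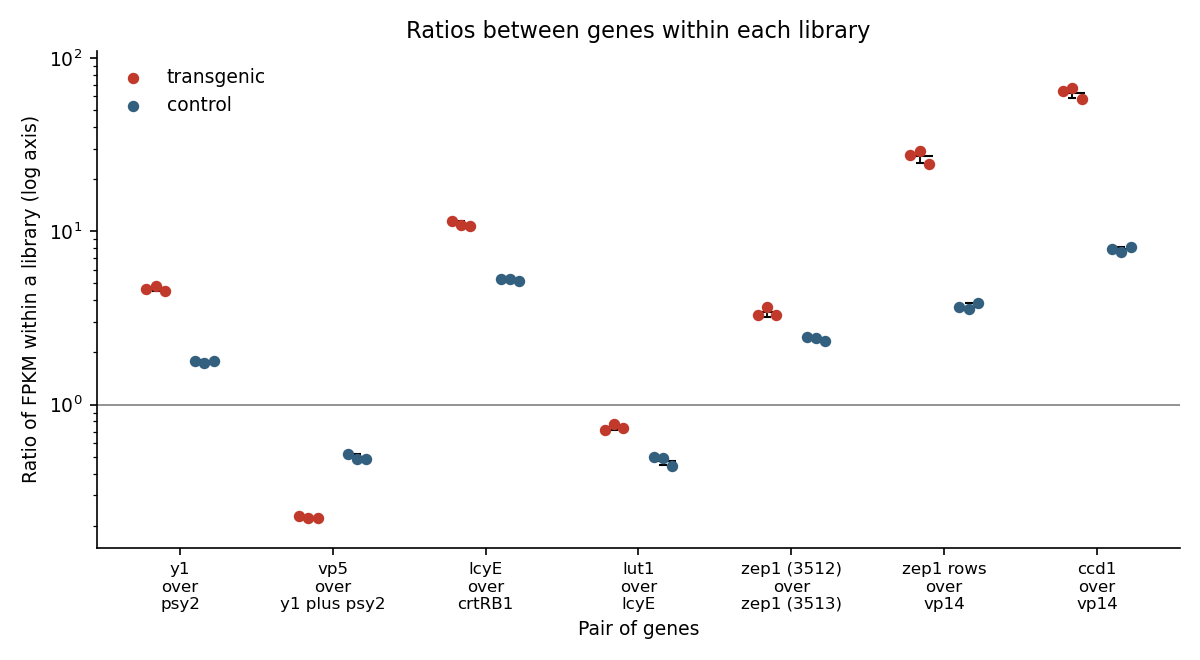
Ratios of FPKM between 2 genes, or sums of genes, of the same library (y axis, log) for 7 pairs (x axis), with transgenic libraries in red left of control libraries in blue; bars are the mean and SD of 3 libraries and the grey line marks a ratio of 1. The groups do not overlap for any of the 7 pairs, and the share among other pairs of genes was not computed. The pair vp5 over y1 plus psy2 is the only one with the transgenic libraries below the control libraries.

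The summed level of the 10 models was 872.8, 889.5 and 876.7 FPKM in the transgenic libraries and 986.2, 973.2 and 976.1 FPKM in the control libraries. The transgenic sum was 0.899 times the control sum as deposited, but 1.44 times after median-of-ratios scaling (two-sided exact permutation p = 0.1 in both, the lowest that the design allows). Within this sum the make-up differed. The share of y1 was 28.4% ± 0.1 in transgenic and 13.3% ± 0.2 in control leaves (SD, n = 3 each). That of ccd1 was 32.2% ± 0.1 in transgenic and 37.4% ± 0.4 in control leaves. Because the shares add up to the whole, a larger share of y1 by itself lowers the combined share of the other genes. The share of lut1 was 4.61% ± 0.22 in transgenic and 2.65% ± 0.07 in control leaves, and the share of vp14 was 0.511% ± 0.038 in transgenic and 4.74% ± 0.17 in control leaves.

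**Figure D5:**
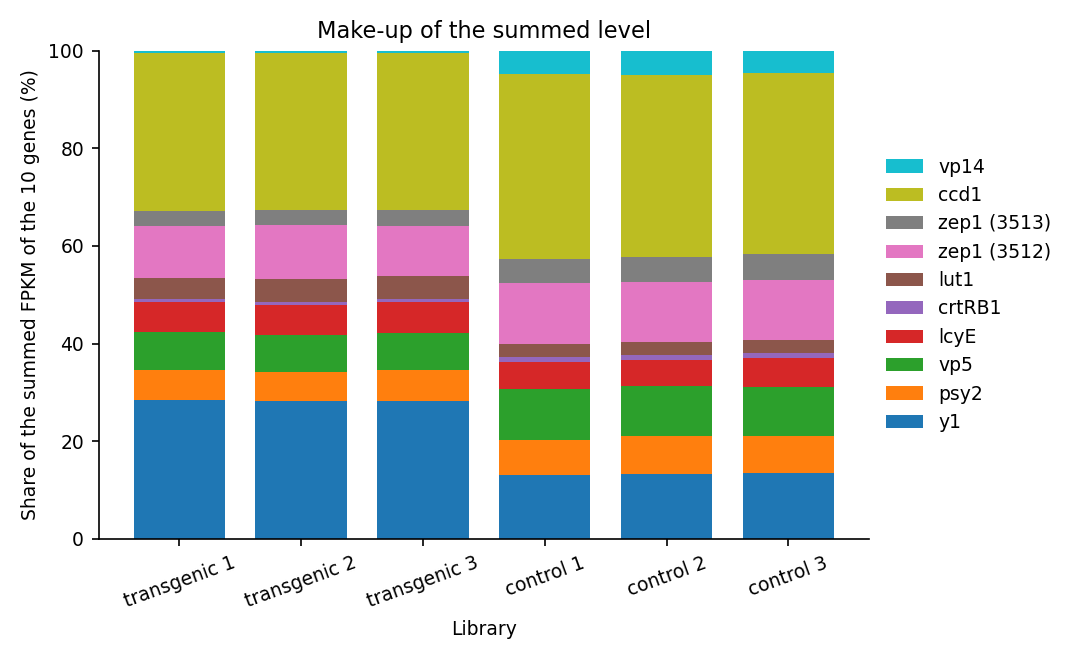
Share of each gene in the summed FPKM of the 10 genes (y axis, percent) in each library (x axis), transgenic libraries on the left. The segment of y1 at the bottom covers 28.3% to 28.4% in the transgenic and 13.0% to 13.5% in the control libraries, and the segment of vp14 at the top covers 0.481% to 0.554% in the transgenic and 4.56% to 4.90% in the control libraries.

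The order of the levels, which FPKM gives per gene length, was led in both groups by ccd1, y1, Zm00001d003512 and vp5. In transgenic leaves lcyE, psy2, lut1, Zm00001d003513, crtRB1 and vp14 followed, and the neighbours lcyE and psy2, and crtRB1 and vp14, overlapped between libraries. In control leaves the order went on with psy2, lcyE, Zm00001d003513, vp14, lut1 and crtRB1, with no overlap between neighbours. Among all 44351 genes of a library, counted from the most abundant, y1 ranked at a median of 321 in transgenic and 679 in control leaves. The rank of lut1 was 2198 in transgenic and 5136 in control leaves, and that of vp14 was 12908 in transgenic and 2601 in control leaves. The rank of lcyE was 1574 in transgenic and 2182 in control leaves, although its FPKM values overlapped.

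Likeness of pattern was measured as the distance between centred log2(FPKM + 1) values over the 6 libraries. Among the 10 genes the closest pair was Zm00001d003512 and ccd1, at a distance of 0.063, and the most distant was y1 and vp14, at 4.96. The 2 zep1 models were 0.61 apart. Outside the 10 genes, Zm00001d002325 and Zm00001d049016 lay closest to y1, at distances of 0.047 and 0.051. Zm00001d002325 had 191.3, 192.8 and 188.5 FPKM in the transgenic libraries and 100.4, 97.8 and 98.9 FPKM in the control libraries. Zm00001d018047 and Zm00001d023924 lay closest to vp14, at distances of 0.079 and 0.085. Zm00001d018047 had 1.96, 2.04 and 2.31 FPKM in the transgenic libraries and 24.96, 26.18 and 25.17 FPKM in the control libraries. With 2 groups, this likeness mostly reflects the size of the group difference, and the files give no names for these 4 identifiers.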

How the data were processed

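Each library came as 1 deposited table of FPKM values, to 2 decimals, for 44351 identifiers, per the file headers. Libraries were made from total leaf RNA with a SMARTER mRNA-Seq kit, per the labels' protocols. DESeq2 and mm10, a mouse build, are named without a role per the submitters' processing notes; the sources used here do not name the aligner, the counting step or the maize build. Depth in reads is unknown. Low values could not decide whether there was a common step between groups. The most frequent ratio ranged from 0.973 to 2.06 over pairs of 1 transgenic and 1 control library. Its bin held only 6 to 14 of the 89 to 135 genes per pair, too few to tell. Between transgenic replicates 1 and 2 the most frequent ratio was 0.330, in a bin of 17 of 226 genes, likewise too few to tell. For every other pair of libraries of the same group it was 1.0.

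The members, ratios and tests were chosen with earlier results of these data known. The 22944 genes that averaged 0.5 FPKM or more were fitted on log2(FPKM + 1) with limma 3.58.1 (R 4.3.3), using an intensity trend and no covariate besides group; tests were two-sided, with Benjamini-Hochberg adjustment over all of them. Fold changes on this scale understate changes of low genes. The procedure was tested on simulated data. Sums and ratios of FPKM had exact permutation tests (scipy 1.17.1). All 10 members are named, and for the members with the highest and lowest fold change the 2 nearest genes. Of 42 other pathway symbols and 12 cell type marker symbols, 0 could be paired with an identifier. No pairing was possible, because the files give no symbols and the RefSeq table held 0 of the 44146 Zm00001d identifiers. Alternatives were the pseudocount, the filter, 3 scalings, the variance model, a replicate block, the threshold and leaving out each library.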

Additional observations from a re-analysis of the deposited data

How the results depend on the processing

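Among the 10 genes, 7 were higher and 3 lower in transgenic leaves with median-of-ratios scaling, where 36.3% and 36.9% of all tested genes were. As deposited, 2 of the 10 were higher and 7 lower, where 16.3% and 67.7% of all tested genes were. The log2 ratio of the summed FPKM of the 10 genes was -0.15 as deposited and 0.53 with median-of-ratios scaling. That scaling shifts all genes upward in transgenic relative to control libraries by construction. It also turned the log2 fold changes of psy2 to 0.22, of vp5 to 0.10, of Zm00001d003512 (zep1) to 0.32 and of ccd1 to 0.31. The lcyE difference, 0.01 and not called as deposited, was -0.26 and called lower with the same total FPKM, which made 8 genes lower. Under that scaling the median over all tested genes was -0.78, so lcyE lay above it. The shares of all tested genes called were not computed for that scaling, for the replicate block or for the fits without single libraries. Median-of-ratios scaling gave lcyE 0.68 and quantile normalisation 0.40, called higher in both. When single libraries were left out, the lcyE difference as deposited lay between -0.0089 (without control replicate 2) and 0.042 (without control replicate 3) and was not called. Single genes had 140 values under alternatives, of which 132 had the same sign and the same call, 6 turned sign and 2 gained a call with the sign kept. The filters, the variance model and the replicate block leave each fold change as it was, so no sign could turn under them. Apart from lcyE without control replicate 2, every change came with a different scaling. In all, 3 values, all of lcyE, gained a call, 1 of them with its sign turned. Leaving out single libraries kept 2 genes higher and 7 lower, gave -0.16 to -0.15 for the log2 ratio of the summed FPKM, 1.37 to 1.42 for y1 over psy2, -1.17 to -1.13 for vp5 over both synthases, 1.05 to 1.09 for lcyE over crtRB1, 0.58 to 0.66 for lut1 over lcyE, 0.46 to 0.53 for the zep1 models, 2.82 to 2.95 for zep1 over vp14 and 2.96 to 3.06 for ccd1 over vp14 (log2 differences of ratios). With quantile normalisation, added after seeing the data, the log2 difference of the ratio between the zep1 models was 0.21, against 0.51 as deposited, and that of ccd1 over vp14 was 2.18, against 3.00. The replicate block gave 2 genes higher and 7 lower; same-numbered libraries correlated at 0.0019, -0.051 and 0.0018 in their deviations from group means, so the numbers were not taken as a pairing. The number of reads behind low values, such as those of vp14 and crtRB1 in transgenic leaves, is unknown.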
